A study of Mus musculus with 6 samples.

Results

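H3K9me3, trimethylated lysine 9 of histone H3, was examined at 45 imprinted genes, which were taken from a list of names and matched one to one to the 55413 GENCODE M21 genes on chromosomes 1 to 19, X and Y. Members of the list lie in 20 clusters on 10 chromosomes, and each gene was read together with 3 kb on either side. Chromatin immunoprecipitation and sequencing (ChIP-seq) was performed in neural stem cells (NSCs) derived from the cerebral cortex of mouse embryos at E12.5 and kept in culture with EGF and FGF. All cells carried a lentivirus, which expressed a scrambled shRNA in the shCTR cells and an shRNA against PHF8, a JmjC-domain histone demethylase, in the shPHF8 cells. There were 2 ChIP libraries per condition, and the 1 input per condition was not used here. The labels number the libraries of a condition without saying whether they came from separate cultures, and the targeted gene cannot be checked here because the peak lists hold no expression.

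An imprinted gene is transcribed mainly from the allele inherited from one parent. Most imprinted genes sit in clusters governed by an imprinting control region, a CpG-rich stretch that acquires DNA methylation in the germline of only one sex (a germline differentially methylated region, DMR). The zinc finger protein ZFP57 recognises the hexamer TGCCGC when it is methylated and recruits KAP1 (Trim28) and SETDB1, the enzyme that places H3K9me3, so that the methylated allele of a germline DMR is a textbook site of this mark. The peaks do not separate the parental alleles.

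The deposited lists give only the position of each broad peak, with no height, score or read count, so the reads behind a peak are unknown and the measure used is the number of bases covered by peaks. Values are given in the order shCTR replicates 1 and 2, then shPHF8 replicates 1 and 2. Peaks covered 157, 160, 219 and 197 Mb of these chromosomes, and their median width was 2400, 2400, 4200 and 2800 bp. The covered length is therefore greater in both shPHF8 libraries before any gene is considered, and shPHF8 replicate 1 stands apart by its wide peaks. A gene is called higher or lower in shPHF8 when both shPHF8 libraries lie above or below both shCTR libraries. With 2 libraries against 2 an exact permutation test cannot give a p below 0.33, so each count of calls is read against the percentage of all genes called in the same way.

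H3K9me3 peaks were present at most imprinted genes in both conditions. A peak lay over the gene or its 3 kb flanks in all 4 libraries at 41 of the 45 genes (91.1%), whereas 23.9% of all genes and 34% of protein-coding genes had one. Magel2 and Ddc had a peak in some of the libraries. Zim1 and Asb4, which encode a zinc finger protein and an ankyrin repeat protein, had none in any library. Imprinted genes are long (median 30726 bp against 3331 bp for all genes), which gives a peak more room, and their share at the start site does not depend on that length. A peak lay within 1 kb of the annotated 5' end in all 4 libraries at 28 imprinted genes (62.2%) and at 6.8% of all genes, and with equal covered length in each library (the widest peaks only) at 18 and 4.28%. Counting any annotated transcript start, with the best covered one taken in each library separately, this was so for 35 imprinted genes and 8.83% of all genes. At 20 of these 35 the whole window of 2001 bp around that start was covered in every library. A gene with more annotated starts has more chances in this count. All 7 members that are not protein-coding (H19, Kcnq1ot1, Meg3, Rian, Mirg, Airn and Peg13) had a peak over the gene in all 4 libraries.

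**Figure D1:**
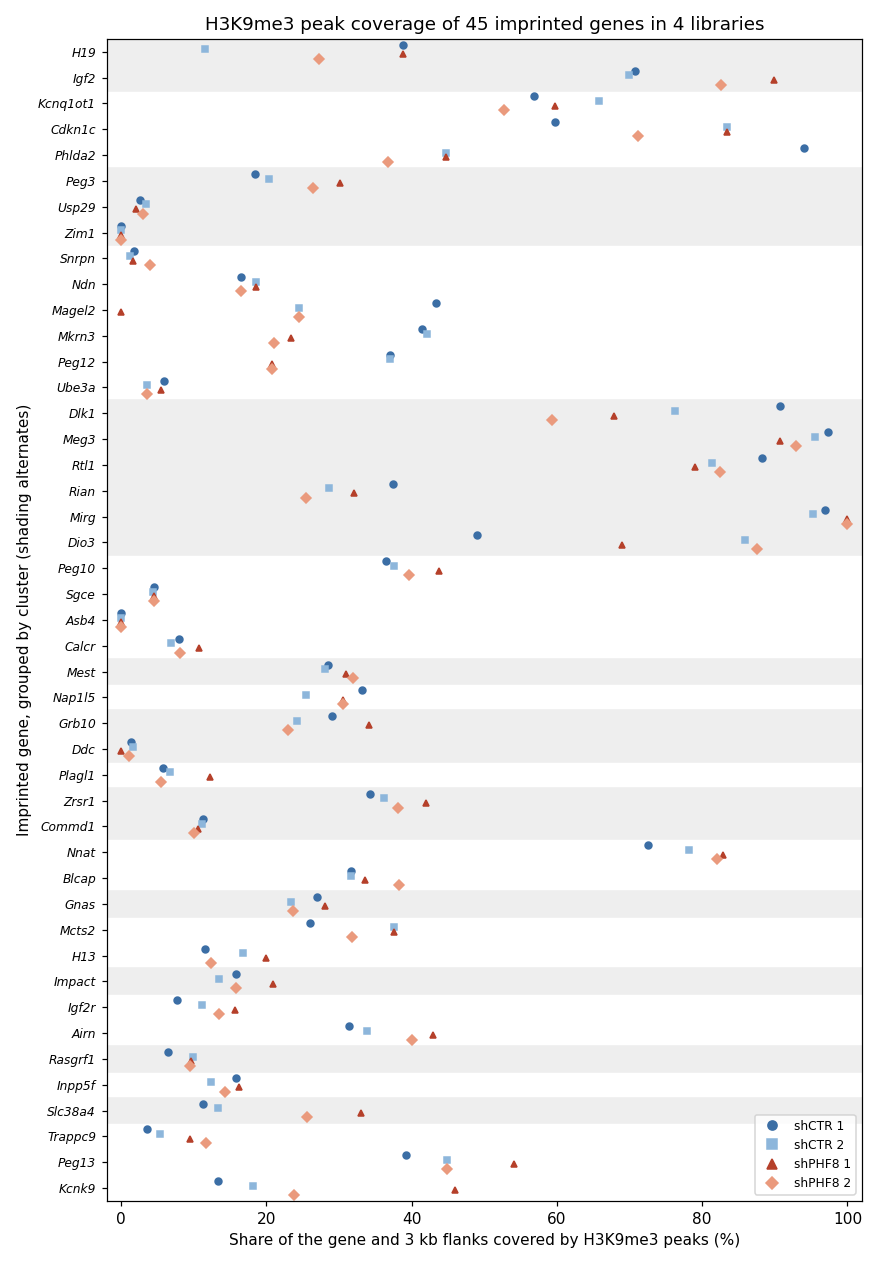
Share of each imprinted gene and its 3 kb flanks covered by H3K9me3 peaks (horizontal axis, percent) in the 4 libraries, with 1 marker per library and genes grouped by cluster. Meg3 and Mirg are covered over more than 90% in each library, whereas Zim1 and Asb4 are at 0, and the markers of the 2 conditions overlap at 23 genes with a peak.

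The genes listed with a germline DMR, mostly at or next to a start site, were described first, as these regions define most of the clusters. The list, by textbook knowledge, held 21 members, 18 with a maternally methylated DMR and 3 with a paternally methylated one (H19, Meg3 and Rasgrf1). At Meg3 and Rasgrf1 the DMR lies farther upstream, in intervals described below. A peak at the start of these genes is therefore not a peak at their DMR. All 21 had a peak over the gene in all 4 libraries. A peak lay within 1 kb of an annotated transcript start in all 4 libraries at 19 of the 21, including all 18 maternal ones, and within 3 kb at all 21. With equal covered length it was 11 of the 21, against 5.45% of all genes. The exceptions at 1 kb were H19 and Rasgrf1. H19 lacked such a peak only in shCTR replicate 2 (1343, 0, 1343 and 343 bp). Rasgrf1 lacked it only in shPHF8 replicate 1 (712, 1112, 0 and 912 bp). Of the other 24 members, 16 had a peak at a transcript start in all 4 libraries and 7 had none. All these are counts of genes and not of separate peaks. Peg3 and Usp29 share a region over their starts, as do Peg10 and Sgce.

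In several of these genes the peak stood at an internal start and not at the annotated 5' end. The window of 1 kb around the 5' end held 0 bp of peaks in every library at Snrpn, Mest and Impact. At Snrpn, which encodes a spliceosomal protein, the covered length at the best covered transcript start was 1890, 690, 1290 and 1090 bp. At Mest, a gene of the hydrolase family expressed from the paternal allele, and at Impact, a regulator of translation, a transcript start was covered over all 2001 bp in each library. Inpp5f, whose paternally expressed short transcript starts inside an intron, had 1400, 1546, 2001 and 2001 bp at a transcript start and only 673, 0, 0 and 273 bp at the 5' end. The same holds for Plagl1, a zinc finger transcription factor, with 1813, 2001, 2001 and 2001 bp at a transcript start and 800, 0, 0 and 0 bp at the 5' end.

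Around the start with the most CpG dinucleotides, coverage of the genes with a germline DMR was centred and narrow. At the start itself 17, 17, 18 and 17 of the 21 genes were covered, and 4 kb upstream 5, 3, 7 and 7 were. At 4 kb downstream the numbers were 2, 2, 4 and 2. The other 24 members had 15, 15, 14 and 15 genes covered at the start, 8, 5, 7 and 7 at 4 kb upstream, and 7, 9, 7 and 9 at 4 kb downstream. The 4 libraries followed each other in both groups. Start sites of the genes with a DMR had a median of 61 CpG within 500 bp, against 15 for all genes, and were covered within 1 kb in all 4 libraries at 17 of 21 genes. Of the 10284 genes with at least 61 CpG, 740 (7.2%) were covered in that way, close to the 6.84% of all genes. The counts for the genes with a DMR depend on the start chosen. Within 1 kb of the CpG-richest start Inpp5f had 641, 0, 0 and 241 bp covered and Gnas 0, 114, 0 and 514 bp. At the best covered start both had a peak in all 4 libraries.

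**Figure D2:**
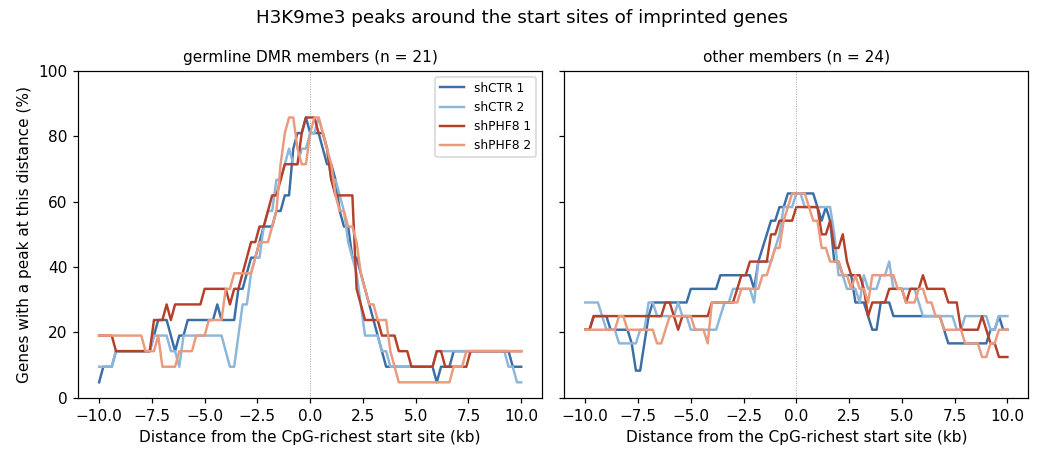
Percentage of genes with an H3K9me3 peak (vertical axis) at each distance from the CpG-richest transcript start (horizontal axis, kb, upstream to the left) for the 21 imprinted genes with a germline DMR and the 24 others, with 1 line per library. Coverage at the start reaches 17 or 18 of 21 genes in the first group and 14 or 15 of 24 in the second, with the 4 lines close together.

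The sequence under these peaks was read from the reference genome (GRCm38.p6, RefSeq), searching for TGCCGC on both strands, where it reads GCGGCA on the other strand. Of the 32965 stretches of at least 300 bp that peaks of all 4 libraries had in common, 3.37% held the hexamer in their central 300 bases. Genes with a germline DMR had 15 distinct stretches within 1 kb of their CpG-richest start, and 7 of the 15 held it there. The other members had 14 such stretches, of which 1 did, and 1 of the 14 (Commd1) is also the stretch of Zrsr1 in the first group. Anywhere in the stretch, the hexamer was found in 15 of 15 and 12 of 14. The central 300 bases held a median of 16 CpG in the first group, 23 in the second and 3 over all stretches. Of the 664 stretches with at least 16 CpG there, 26.2% held the hexamer in these bases, so the 3.37% is not a like background for CpG-rich stretches. Over their whole length the groups had medians of 3.8 and 4.21 CpG per 100 bp, and their median lengths were 3200 and 3400 bp. In the RefSeq promoter windows of 300 bases, the hexamer was found in 11.6% of 32851 promoters and at 13.1% of 27025 genes. It was found at 8 of the 16 genes with a germline DMR that the promoter table holds and at 4 of the 20 other members in it. Promoters of like CpG content were not counted apart, so these shares are not a like background either. The share of all stretches with the hexamer anywhere was not counted. A match is a description of letters and not a binding site.

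Windows of 120 bases inside the common stretches are printed for 8 of these genes, to show the letters that the textbook reader of the methylated allele recognises where H3K9me3 was called in every library. For each gene the window with the most copies of the hexamer, outside exons and within 3 kb of the CpG-richest start, was taken, so the number of copies in it is set by the choice. No such window with the hexamer was found at Kcnq1ot1, Zrsr1, Nnat, Inpp5f and Rasgrf1, and Impact was not searched. The search did not reach the internal start of Inpp5f, whose CpG-richest start is near its 5' end. Nor did it reach most of the 40 kb upstream of Rasgrf1, so it does not show that these DMRs lack the hexamer. At Peg10, Sgce, Peg13, Gnas and Meg3 the window held only 1 copy. The window of Usp29 is that of Peg3 read on the other strand, and that of Grb10, with 2 copies, is not printed. The 8 printed hold 2 or 3 copies and do not stand for all genes with a germline DMR. All are 5' to 3' on the strand of the named gene, with TGCCGC and GCGGCA in capitals. That of Peg3 (chr7:6730053-6730172, minus strand) lies in an intron of Peg3, that of Snrpn (chr7:60004307-60004426, minus strand) in introns of Snrpn, Snurf and Gm38393, and that of Mest (chr6:30737576-30737695, plus strand) in an intron of Mest. The window of Nap1l5 (chr6:58907077-58907196, minus strand) lies in an intron of Herc3, that of Plagl1 (chr10:13091025-13091144, plus strand) in an intron of Plagl1, and that of Mcts2 (chr2:152686787-152686906, plus strand) in an intron of H13. The window of Airn (chr17:12741666-12741785, plus strand) lies in introns of both Airn and Igf2r, and that of H19 (chr7:142580205-142580324, minus strand) between genes, upstream of H19.
Peg3: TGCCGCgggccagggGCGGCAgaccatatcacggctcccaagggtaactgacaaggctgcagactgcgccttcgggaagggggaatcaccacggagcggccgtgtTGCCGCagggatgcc
Snrpn: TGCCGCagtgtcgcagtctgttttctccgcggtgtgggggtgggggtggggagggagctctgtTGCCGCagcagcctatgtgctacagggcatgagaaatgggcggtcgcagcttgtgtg
Mest: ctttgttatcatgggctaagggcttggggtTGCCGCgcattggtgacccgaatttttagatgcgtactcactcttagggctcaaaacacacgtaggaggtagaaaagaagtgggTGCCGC
Nap1l5: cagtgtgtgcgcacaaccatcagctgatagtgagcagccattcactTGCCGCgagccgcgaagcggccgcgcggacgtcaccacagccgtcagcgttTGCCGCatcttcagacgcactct
Plagl1: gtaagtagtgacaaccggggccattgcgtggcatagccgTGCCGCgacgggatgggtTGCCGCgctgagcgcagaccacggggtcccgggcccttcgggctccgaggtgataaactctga
Mcts2: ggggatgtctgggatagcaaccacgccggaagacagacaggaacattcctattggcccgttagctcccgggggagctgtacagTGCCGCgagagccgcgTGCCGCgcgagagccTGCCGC
Airn: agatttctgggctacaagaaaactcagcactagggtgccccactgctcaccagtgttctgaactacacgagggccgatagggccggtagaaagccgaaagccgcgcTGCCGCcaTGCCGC
H19: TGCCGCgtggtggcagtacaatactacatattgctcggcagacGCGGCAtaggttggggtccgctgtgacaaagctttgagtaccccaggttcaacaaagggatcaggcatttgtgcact

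The covered length over the imprinted genes was compared between the conditions next. Of the 43 genes with a peak in at least 1 library, 14 (32.6%) were higher in shPHF8 and 6 (14%) were lower, against 27.1% and 10.6% of the 24042 genes with a peak. The remaining 23 overlapped. Both shares are near those of all genes. The higher genes were Igf2, Peg3, Mirg, Peg10, Calcr, Mest, Zrsr1, Nnat, Blcap, Igf2r, Airn, Slc38a4, Trappc9 and Kcnk9, and the lower ones Mkrn3, Peg12, Dlk1, Meg3, Ddc and Commd1. When the covered bases of each library were scaled to the same genome-wide total, 4 of the 43 were higher and 26 lower. Of all genes with a peak, 15.5% and 25.2% were, so the lower share of the members was then well above that of all genes. A gene covered almost whole in every library, such as Mirg, becomes lower by the scaling itself. Keeping in each library only its widest peaks, until all libraries covered the same length, gave 11 higher and 14 lower, against 14.4% and 24.4% of all genes. The union of the imprinted genes (2718882 bp) had 437636, 442422, 528026 and 480832 bp covered, a ratio of shPHF8 to shCTR of 1.15 ± 0.0763 (SD, n = 2 libraries per condition), while the genome-wide ratio was 1.32 ± 0.1. The ratio over the members was 0.872 after scaling and 0.993 with equal covered length. Without Trappc9, the longest member, it was 1.08, and without Trappc9, Peg13, Kcnk9 and Slc38a4 it was 1.03, so that 4 genes on chromosome 15 hold most of the excess.

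**Figure D3:**
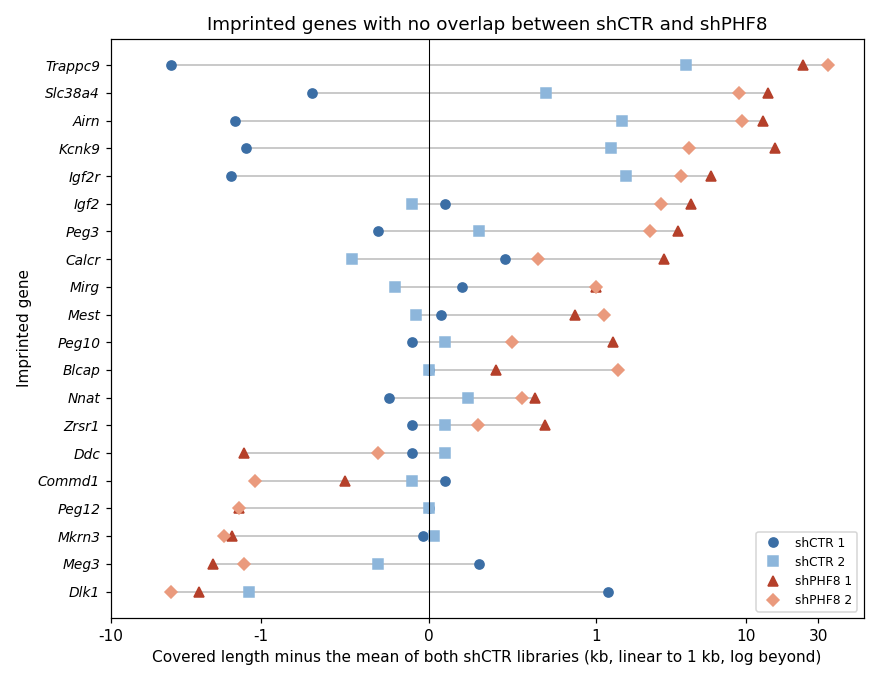
Covered length of the 20 imprinted genes whose conditions do not overlap, as the difference of each library from the mean of both shCTR libraries (horizontal axis, kb, linear to 1 kb and logarithmic beyond), with 1 marker per library. Trappc9, Slc38a4, Airn and Kcnk9 lie farthest to the right and Dlk1 farthest to the left, and the direction of Airn and of 8 more genes on the right turns when libraries are scaled to the same total.

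The largest difference at a single gene was at Trappc9, in the Peg13 cluster on chromosome 15. Peg13 is a non-coding RNA transcribed from within an intron of Trappc9, a subunit of the TRAPPII trafficking complex, and its DMR controls the neighbouring potassium channel gene Kcnk9. Trappc9 had 17200, 25200, 45000 and 56000 bp covered, a mean difference of 29300 bp. Both shPHF8 libraries held more than either shCTR library. Of the 7 regions gained at imprinted genes, 5 lay in Trappc9, with centres 29.5, 66.1, 148, 213 and 317 kb downstream of its start, and 3 of these lay wholly in introns. Kcnk9 had 6800, 9340, 23600 and 12200 bp covered, a mean difference of 9830 bp that was 4130 bp without shPHF8 replicate 1 and 15530 bp without replicate 2. Its gained region of 5800 bp had 4800 bp covered in shPHF8 replicate 1 and 3200 bp in replicate 2. At Peg13 itself 4200, 4800, 5800 and 4800 bp were covered, and the conditions overlapped. From Kcnk9 to Trappc9 the cluster was covered over 4.24, 6.22, 12.1 and 12% of its length, and it stayed higher in both shPHF8 libraries after scaling (by 26157 bp) and with equal covered length (by 22300 bp).

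Slc38a4, which encodes an amino acid transporter and is also on chromosome 15, had 7556, 8956, 22156 and 17156 bp covered. The start site lay under a peak 4400 and 5400 bp wide in the shCTR libraries, with a separate peak of 2800 or 3400 bp upstream, and under 1 peak of 12400 and 12200 bp in the shPHF8 libraries. Within 1 kb of the start the covered length was 1845, 1845, 2001 and 2001 bp. The gene was higher in shPHF8 with other flanks, wide peaks, equal covered length, a minimum gap of 1000 bp and scaling. Igf2, a fetal growth factor, likewise had 1 peak of 22200 and 20600 bp in the shPHF8 libraries where the shCTR libraries had a peak of 14200 and 13800 bp and a second one upstream. Its covered length was 15616, 15416, 19816 and 18216 bp, higher by 3500 bp in shPHF8, but the difference was -1216 bp after scaling.

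H19, the non-coding RNA gene that shares its control region with Igf2, had 3343, 1000, 3343 and 2343 bp covered. The value was lowest in shCTR replicate 2 and the conditions overlapped. In the 10 kb upstream of H19, where the paternally methylated control region lies, 3457, 1000, 5057 and 4200 bp were covered by 1 peak in each library. In shCTR replicate 2 the peak ended 1858 bp short of the start, so this library had no peak within 1 kb of it. Rasgrf1, a guanine nucleotide exchange factor gene, had 7893, 12093, 11893 and 11693 bp covered, with shCTR replicate 1 lowest. In the 40 kb upstream of it, which hold its paternally methylated region, 14400, 13707, 25200 and 19200 bp were covered, more in both shPHF8 libraries. A region of 4800 bp centred 16.7 kb downstream of the start of Rasgrf1 was gained, with 4800 bp covered in shPHF8 replicate 1 and 2400 bp in replicate 2.

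At the Dlk1-Dio3 cluster on chromosome 12 peaks were nearly continuous. From Dlk1 to Dio3 (834275 bp) they covered 73.5, 67.6, 77.5 and 76.6%, with 72, 78, 44 and 56 peaks. The shPHF8 libraries thus had fewer and wider peaks here, and more covered length by 54522 bp, a direction that held with equal covered length (36722 bp) and turned after scaling (-114118 bp). Single genes of the cluster did not all follow. Dlk1, a transmembrane protein and non-canonical Notch ligand expressed from the paternal allele, had 14978, 12578, 11200 and 9800 bp covered, lower in both shPHF8 libraries (difference -3278 bp). The maternally expressed RNA gene Meg3 had 35726, 35126, 33326 and 34126 bp (difference -1700 bp), also lower in both. Without shCTR replicate 1 the difference at Dlk1 was -2078 bp. Both calls held with other flanks, with wide peaks, with equal covered length and with a minimum gap of 1000 bp. Meg3 met that gap only exactly (35126 bp in shCTR replicate 2 against 34126 bp in shPHF8 replicate 2). Scaling cannot undo a lower call. Mirg, which hosts microRNAs, was covered over 96.9, 95.3, 100 and 100%, which was higher by 1000 bp in shPHF8 with a difference of -5911 bp after scaling. At Rtl1, a gene derived from a retrotransposon, 15138, 13938, 13538 and 14138 bp were covered and the conditions overlapped, as they did at Rian (23861, 18261, 20461 and 16261 bp), a host of small RNAs, and at Dio3 (3933, 6897, 5533 and 7030 bp), the deiodinase that inactivates thyroid hormone. The interval between Dlk1 and Meg3, which contains the germline DMR, had 57064, 57264, 47264 and 57864 bp of its 77664 bp covered, lowest in shPHF8 replicate 1.

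**Figure D4:**
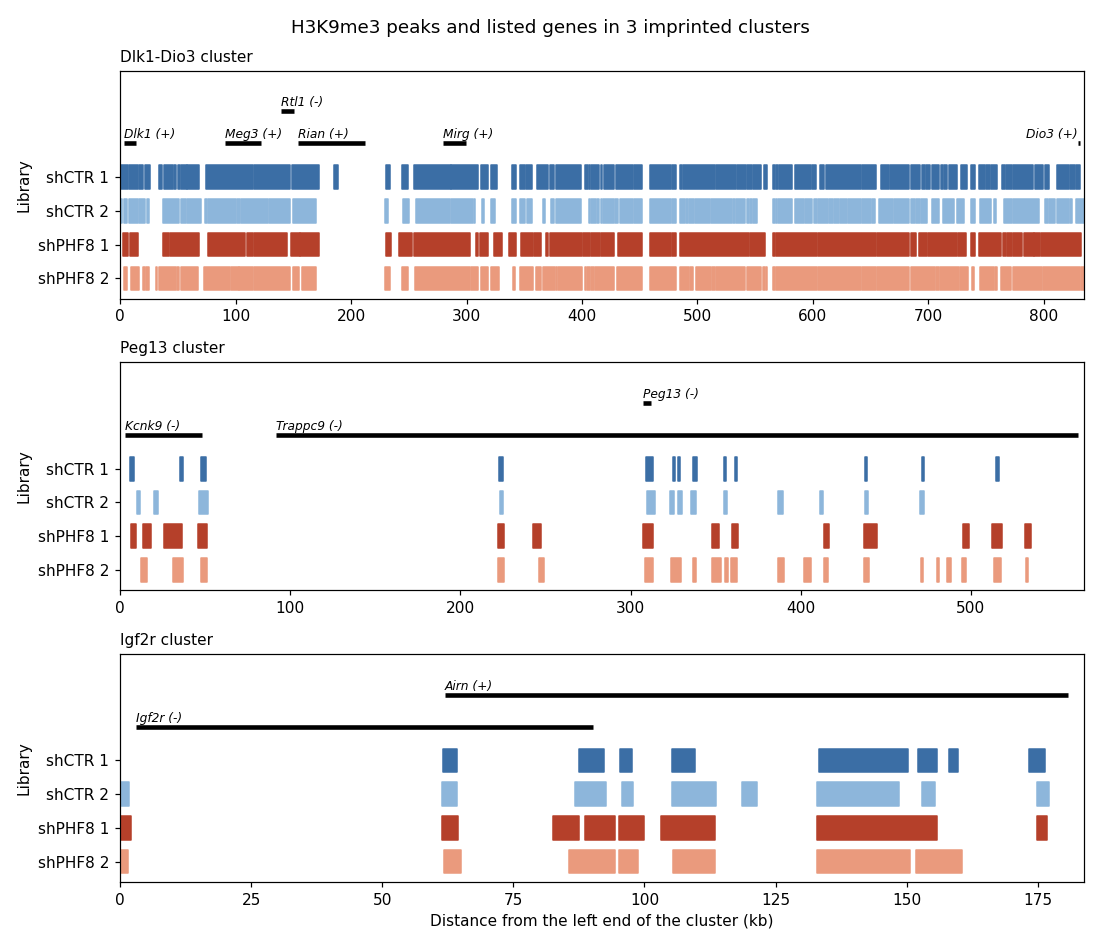
H3K9me3 peaks of each library (coloured bars, 1 row per library) and listed genes (black lines, strand in brackets) along the Dlk1-Dio3, Peg13 and Igf2r clusters (horizontal axis, kb from the left end of each cluster). Peaks fill 67.6 to 77.5% of the Dlk1-Dio3 cluster, and 12.1 and 12% of the Peg13 cluster in the shPHF8 libraries against 4.24 and 6.22% in the shCTR libraries.

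On chromosome 17 the RNA gene Airn runs through the start of Igf2r, the gene of the receptor that clears IGF2. Airn had 39200, 42200, 53600 and 50000 bp covered, higher in both shPHF8 libraries by 11100 bp before scaling, and the difference was -1463 bp after it. Igf2r had 7200, 10395, 14659 and 12459 bp, higher by 4762 bp, by 3164 bp without shCTR replicate 1, and by 1749 bp after scaling, where the conditions overlapped. A region over the start of Igf2r and within Airn was covered over 4600, 5800, 10800 and 8800 bp. A second region, over the start of Airn and in Igf2r, had 2600, 2800, 3000 and 3200 bp.

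In the Kcnq1 domain on chromosome 7 the covered length was not higher in shPHF8. Kcnq1ot1, the antisense RNA gene whose start is the control region, had 56400, 65200, 59200 and 52200 bp covered, and the conditions overlapped. So did they at Cdkn1c, a cyclin-dependent kinase inhibitor, with 5200, 7262, 7262 and 6200 bp. At Phlda2, a negative regulator of placental growth, 7150, 3400, 3400 and 2800 bp were covered, highest in shCTR replicate 1. The domain as a whole was covered over 31.2, 36.4, 33.2 and 29.8%, and it was lower in both shPHF8 libraries after scaling.

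The Snrpn-Ube3a cluster, the mouse counterpart of the Prader-Willi and Angelman syndrome region, held small peaks at its intronless genes. Mkrn3, a RING finger gene, had 3539, 3600, 2000 and 1800 bp covered, lower in both shPHF8 libraries (difference -1670 bp), and its start-site window was also lower (2001, 2001, 1862 and 1662 bp). Peg12 had 3200, 3200, 1800 and 1800 bp. The difference there was a lost region of 1600 bp, centred 3.71 kb downstream of the start and outside the gene, with 1600 and 1400 bp covered in the shCTR libraries, and without flanks Peg12 was higher by 200 bp. Magel2 had 4600, 2600, 0 and 2600 bp covered, and its start-site window had 2001, 1610, 0 and 1410 bp. Its lower start-site value thus rests largely on shPHF8 replicate 1, in which the peak was missing. Ndn, a gene of the same MAGE family, had one peak of 1600 or 1800 bp in each library, starting more than 1 kb downstream of its start. At Snrpn the covered length was 2800, 2000, 2600 and 6400 bp and at the ubiquitin ligase gene Ube3a, expressed from the maternal allele in neurons, 5200, 3200, 4800 and 3200 bp, with overlap of the conditions at both.

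The Peg3 cluster had one shared peak. Peg3, a zinc finger gene, had 6000, 6600, 9800 and 8600 bp covered and was higher in both shPHF8 libraries by 2900 bp, and by 802 bp after scaling, where the conditions still did not overlap. Usp29, a ubiquitin-specific protease gene that runs the opposite way from the same control region, had 6200, 8223, 5023 and 7423 bp, and the conditions overlapped. The region over both starts was covered over 3600, 5200, 5400 and 5800 bp. In the Peg10 cluster, Peg10, another retrotransposon-derived gene, had 7000, 7200, 8400 and 7600 bp, higher by 900 bp, by 500 bp without shPHF8 replicate 1, with a difference of -1176 bp after scaling. Its neighbour Sgce, the epsilon-sarcoglycan gene, had 3600, 3400, 3600 and 3600 bp, and the conditions overlapped. Calcr, the calcitonin receptor gene, had 6714, 5800, 9114 and 6914 bp, higher by 1757 bp, but by 657 bp without shPHF8 replicate 1 and by 2857 bp without replicate 2, with -226 bp after scaling.

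At the 14 other members the mean differences, shPHF8 minus shCTR, ranged from -800 to 2200 bp. Mest had 8800, 8654, 9600 and 9854 bp covered, higher by 1000 bp, with -1512 bp after scaling. Nnat, a proteolipid gene of the developing brain, lies in an intron of Blcap. Nnat had 6123, 6600, 7000 and 6923 bp and Blcap 6600, 6600, 7000 and 8000 bp, both higher before scaling and both lower after it (differences of -1219 and -997 bp). Without shCTR replicate 1 the difference at Nnat was 362 bp, and at Blcap it was 1400 bp without shPHF8 replicate 1 and 400 bp without replicate 2. Zrsr1, a retrogene in an intron of Commd1, had 3600, 3796, 4396 and 3996 bp, higher by 498 bp, by 298 bp without shPHF8 replicate 1, with -586 bp after scaling. Commd1 had 10400, 10200, 9800 and 9200 bp, a difference of -800 bp that was -500 bp without shPHF8 replicate 2 and became 500 bp when only peaks of at least 2000 bp were used. Ddc, the gene of DOPA decarboxylase, had 1200, 1400, 0 and 1000 bp, a difference of -800 bp that was -300 bp without shPHF8 replicate 1 and -1300 bp without replicate 2. Grb10, an adaptor of insulin signalling in the same cluster, had 33083, 27600, 38883 and 26200 bp. The conditions overlapped at Grb10. They also overlapped at Nap1l5 (2600, 2000, 2400 and 2400 bp), Plagl1 (4400, 5200, 9400 and 4200 bp), Gnas (18400, 16000, 19200 and 16200 bp), Mcts2 (1800, 2600, 2600 and 2200 bp), H13 (5200, 7600, 9000 and 5600 bp), Impact (6800, 5800, 9000 and 6800 bp) and Inpp5f (14400, 11200, 14800 and 13000 bp). In 6 of these 7 genes shPHF8 replicate 1, the library with the widest peaks, had the highest or joint highest value among the 4.

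Over the cluster spans, taken from the first to the last listed gene with 3 kb flanks, 9 of the 20 were higher in shPHF8, 1 was lower (Zrsr1) and 10 overlapped. After scaling 2 were higher, Slc38a4 and Peg13, and 11 were lower. With equal covered length 7 were higher and 8 lower. Spans of like length elsewhere were not counted, so these counts have no background share. The genome-wide ratio of covered length before scaling was 1.32.

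At the start sites, few members differed. Of the 33 members with a peak within 1 kb of the 5' end in at least 1 library, 3 were higher in shPHF8 (Igf2, Nap1l5 and Slc38a4) and 2 were lower (Magel2 and Mkrn3), against 14.9% and 8.32% of the 10645 genes with such a peak. None of these passed a minimum gap of 500 bp between the conditions, where 7.74% of all start sites were higher and 4.28% lower. After scaling 0 were higher and 24 lower, against 10.9% and 28.4% of all start sites. Windows already covered over their whole length in all 4 libraries become lower by the scaling itself. Of the 28 members with a start-site peak in all 4 libraries, Dlk1 had 2001, 1023, 1623 and 1023 bp covered and Igf2 785, 1585, 2001 and 2001 bp.

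By presence or absence of a peak, 3 of the 45 members had a region gained in shPHF8 (Rasgrf1, Kcnk9 and Trappc9) and 2 had a region lost (Peg12 and Inpp5f), against 3.36% and 4.7% of all genes. The lost region at Inpp5f was 2800 bp wide, centred 25.5 kb downstream of its start, with 2600 and 1600 bp covered in the shCTR libraries. Peaks of the 4 libraries merged into 110 regions at the members, of which 57 (51.8%) were present in all 4 libraries, 7 were gained, 2 were lost and 44 were mixed. Genome-wide, 37.9% of 71107 regions were present in all 4, 4.28% were gained and 5.03% were lost. The common regions at members had a median width of 6400 bp, against 5400 bp for all common regions.

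Neighbouring imprinted genes often had the same peak. There were 11 regions that touched at least 2 listed genes, and all 11 were present in all 4 libraries. Together they touched 17 members. They joined H13 with Mcts2, Blcap with Nnat, Peg10 with Sgce, Peg3 with Usp29, Commd1 with Zrsr1 (2 regions), Meg3 with Rtl1, Rian with Rtl1, Peg13 with Trappc9, and Airn with Igf2r (2 regions). The widest, over Meg3 and Rtl1, was 74600 bp wide with 71400, 70600, 65400 and 72000 bp covered. Peaks carry no strand, so the share of each gene in such a region cannot be told apart, and members that share a region are not independent observations.

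Genes of the proteins that establish or keep imprints were examined as a list of 20. A peak lay over the gene in all 4 libraries at 7 of them, and 7 had none in any library. Of the 20, 2 were higher in shPHF8, 3 were lower, 0 had a gained region and 2 a lost one. Over all genes, 23.9% had a peak over the gene and 6.8% at the start site in all 4 libraries. A gained region was found at 3.36% and a lost one at 4.7% of all genes. Of all genes with a peak, 27.1% were higher and 10.6% lower. Start-site peaks in all 4 libraries were found at 3, namely Zfp445, a zinc finger gene that acts beside ZFP57 in imprint maintenance (17000, 15600, 16872 and 15272 bp over the gene), Dppa3, which protects methylation in the zygote (4200, 2600, 3400 and 4600 bp), and Ctcfl, a testis paralogue of CTCF (9200, 7600, 12600 and 11325 bp). The lost regions lay at Smchd1, a chromatin protein of the inactive X (9800, 9400, 5000 and 8912 bp), and at Ehmt2, an H3K9 methyltransferase gene (1532, 1000, 0 and 0 bp). Zfp57, Trim28, Dnmt3b, Uhrf1, Ctcf, Suv39h1 and Suv39h2 had no peak in any library. As the files hold no expression, the labelled cell type could be checked only by whether start sites of NSC markers carried a peak. Of 8 markers, Sox2, Nes, Vim, Fabp7, Slc1a3 and Hes1 had none within 1 kb in any library, Hes5 had one in shCTR replicate 1 only, and Pax6 had one in all 4.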

How the data were processed

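NSCs were profiled by single-end H3K9me3 ChIP-seq in 2 shCTR and 2 shPHF8 libraries. The authors aligned reads to mm10 and called broad peaks with SICER2. The paper names SOAP2 as the aligner and the submitters' processing notes name Bowtie2 2.3.5.1, SAMtools 1.9 and deepTools. The deposited files, 1 per library, hold peak positions in bp and no score or signal, and the window, gap and threshold are not given in the sources used here. A call depends on each library's depth, which the lists do not carry (the paper's supplement lists read totals per library, not used here), and a change in height within a peak is not seen.

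Positions were read as 0-based starts with inclusive ends, which makes widths multiples of 200 bp, and are given 1-based. Peaks off chromosomes 1 to 19, X and Y (2 per library) were left out, as were the inputs. Covered bases were counted over GENCODE M21 genes with 3 kb flanks, within 1 kb of starts and over regions merged across libraries. Gained and lost regions had a peak in both libraries of one condition and none of the other. Counting was checked against bedtools 2.31.1 on simulated peaks (Python 3.11.15, numpy 2.4.6, matplotlib 3.10.9). Hexamers and CpG were counted in GRCm38.p6. The members and lists were chosen with earlier results of these data known. Every member was named, and of other lists genes with a start-site peak in all libraries or a gained or lost region, at most 8 in order of covered bases. Alternatives were no or 10 kb flanks, wider or merged peaks, equal covered length, scaling to one total, a minimum gap, other start windows, protein-coding genes, each library left out and the replicate number as a block.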

Additional observations from a re-analysis of the deposited data

How the results depend on the processing

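Of 103 recomputed counts and ratios, 70 stayed within 1.5 times the reported count or 1 SD of the ratio. Scaling to one total moved the members called higher to 4 and lower to 26, start sites to 0 higher and 24 lower, and turned the covered-length ratio to 0.872. Equal covered length moved members lower to 14, members with a lost region to 13 (11.8% of all genes), start sites lower to 7 (15.5%), start-site peaks to 18, germline DMR starts to 11, and the ratio to 0.993. A minimum gap left 7 members higher (16.4% of all genes) and 0 start sites in either direction. With peaks of at least 2000 bp, 3 members were lower and 1 had a lost region. A lost region was found at 1 member without flanks, at 4 with 10 kb flanks and at 1 after merging peaks within 5 kb. Asking for 50% of a region to be covered gave 5 members with a gained region (7.41% of all genes), and a start window of 3 kb gave 5 start sites higher (19.3%).

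Single genes turned direction after scaling (Igf2 -1216, Mirg -5911, Peg10 -1176, Calcr -226, Mest -1512, Zrsr1 -586, Nnat -1219, Blcap -997 and Airn -1463 bp), with equal covered length (Peg10 -900 and Zrsr1 -1700 bp), without flanks (Peg12 200 bp), with 10 kb flanks (Mirg -170 bp) and with wide peaks (Commd1 500 bp). The 7 that kept their call under every alternative were Peg3, Slc38a4, Trappc9, Kcnk9, Mkrn3, Dlk1 and Meg3, though the replicate block and leaving out a library cannot lose any such call and scaling cannot lose a lower one.

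Leaving out a library asks less of a call, so all 20 called genes kept it by construction. Ranges without one library were 16 to 21 members higher, 9 to 12 lower, 4 to 6 with a gained and 4 to 9 with a lost region, 41 to 43 with a peak over the gene, 28 to 30 with a start-site peak, 3 to 9 start sites higher, 3 to 7 lower, and a ratio of 1.09 to 1.2. The shares of all genes moved likewise, to 36.8 to 49.2% higher, 18.5 to 23.8% lower, 5.82 to 9.58% with a gained and 6.59 to 9.97% with a lost region, and of start sites to 23 to 34.5% higher and 13.7 to 21.8% lower. Lost regions were most frequent without shCTR replicate 1 (9) and gained ones without shPHF8 replicate 1 (6).

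With a replicate block, where both same-numbered pairs had to move one way, 18 members were higher and 9 lower (32.7 and 13.5% of all genes), and 3 start sites were higher and 3 lower. The deviations of same-numbered libraries correlated at -0.09 across genes, and the labels do not say that a number marks a shared culture. Against protein-coding genes only, 27.4% were higher, 12.8% lower, 4.9% had a gained and 8.52% a lost region.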

Other observations

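Imprinted genes and neighbours of the same domains that are not on the list of 45 were counted in the same way, as 40 names. A peak lay over the gene in all 4 libraries at 26 of them and within 1 kb of the 5' end in all 4 at 10. The shares of all genes were 23.9% and 6.8%. Of these 40 genes, 9 had no peak in any library, 8 were higher in shPHF8 and 4 lower. Of all genes with a peak, 27.1% were higher and 10.6% lower. A gained and a lost region were found at 3 genes each, against 3.36% and 4.7% of all genes. Kcnq1, the potassium channel gene that contains Kcnq1ot1, had 83042, 101442, 98239 and 92081 bp covered in shCTR replicates 1 and 2 and shPHF8 replicates 1 and 2, with a gained region and overlapping conditions. Zdbf2, the paternally expressed gene of a domain on chromosome 1, had 32712, 36536, 23936 and 24736 bp, and Ago2, the Argonaute gene beside Trappc9, had 22600, 20800, 16400 and 14800 bp with a lost region. Both were lower in both shPHF8 libraries.

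Slc22a3, an organic cation transporter gene near Igf2r, had 31200, 30400, 35800 and 26400 bp covered and a lost region, and Sfmbt2, a Polycomb gene, had 13291, 17891, 14291 and 15091 bp and a gained one. The conditions overlapped at both. Nespas, the antisense RNA gene at the Gnas locus, had 10036, 10036, 10236 and 10236 bp. It was higher in both shPHF8 libraries only by the 200 bp step of peak positions, and at Gnas itself the conditions overlapped. Cdh15, a cadherin gene, had 5432, 5235, 9432 and 10435 bp, also higher in both shPHF8 libraries. The values of these genes after scaling were not computed. Klf14, an intronless gene beside Mest, had 9056, 8878, 9056 and 9056 bp, almost its whole window in every library.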
